A study of Mus musculus with 26 samples.

Results

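Gdf15 and 9 genes of the integrated stress response were described in the left ventricle of mice with a trapped Uty gene, with and without testes. The 10 genes (Gdf15, Atf4, Atf5, Ddit3, Trib3, Asns, Psat1, Phgdh, Mthfd2 and Shmt2) were taken by name from the 47642 genes with counts, and all 10 were found. Gdf15 was chosen by its measured levels, which were lower in gene-trap than in wild-type ventricles in both surgery groups, and the other 9 because they belong to the same pathway. Values of the genotype comparisons are therefore given as a description, without a p-value.

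The integrated stress response is a shared reaction to amino acid shortage, misfolded protein in the endoplasmic reticulum, haem shortage and mitochondrial stress. Kinases that sense these states phosphorylate the initiation factor eIF2, which lowers general protein synthesis but allows translation of mRNAs such as that of the transcription factor ATF4. ATF4 and its partner CHOP, the product of Ddit3, then raise genes for amino acid synthesis, serine and folate metabolism and stress signalling, among them Gdf15, a secreted cytokine that acts on the hindbrain receptor GFRAL and is released by the stressed heart.

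Male mice aged 40 days were compared in groups of genotype and surgery. Gene-trap castrated mice (n = 7) and gene-trap sham mice (n = 6) carried the allele UtyGt(XS0378)Wtsi, a gene trap cassette inserted in intron 4 of Uty, a Y chromosome gene, that ends the transcript early; wild-type castrated mice (n = 7) and wild-type sham mice (n = 6) came from the matched strain C57BL/6.Y<129P2>. Testes had been removed, or a sham operation done, at about 10 days of age, so that the castrated mice grew up without testicular hormones. The trap is present in all cells of the animal, and each library was made from whole ventricle tissue, where fewer cells of a type and less RNA per cell cannot be told apart.

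Each of the 26 libraries counts tags from the 3′ ends of polyadenylated transcripts, and 6357485 to 9399241 counts per library fell in genes. The unit of level is CPM, gene counts scaled to the size of the library and its composition. A level of 3 counts, the limit that a count of 0 allows, was 0.319 to 0.472 CPM. The labels do not say which libraries, if any, share an animal, so that p-values only cover the spread between the libraries deposited. Uty reached at most 1.06 CPM in gene-trap castrated libraries, against at least 6.59 CPM in wild-type castrated ones, and at most 0.723 CPM in gene-trap sham libraries, against at least 6.56 CPM in wild-type sham ones. Markers of cardiomyocytes (8 of 8 with counts, such as Myh6 and Myl2), a list not limited to the ventricle, summed to 51890 CPM or more in every library. Atrial markers summed to at most 678 CPM. Along the first principal component, with 35.6% of the variance, gene-trap castrated libraries scored -25.9 to 35.9, wild-type castrated -14.3 to 37.3, gene-trap sham -21.8 to 28.8 and wild-type sham libraries -78.2 to 3.41.

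Gdf15 (ENSMUSG00000038508; chromosome 8, 70629393 to 70632456, minus strand, GRCm38) was lower in gene-trap than in wild-type ventricles whether or not the testes were present. In castrated mice the gene-trap libraries had 0.923, 1.75 and 2.74 CPM (lowest, median, highest; 7 to 22 counts) and the wild-type libraries 2.32, 5.84 and 11.2 CPM (20 to 95 counts). In sham mice the gene-trap libraries had 1.26, 2.61 and 4.66 CPM (9 to 38 counts) and the wild-type libraries 3.49, 5.97 and 9.52 CPM (25 to 68 counts). The genotypes overlapped in both surgery groups: 4 of 7 gene-trap castrated libraries lay below all wild-type castrated ones, and 4 of 6 gene-trap sham libraries lay below all wild-type sham ones. The means were 1.86 ± 0.695 CPM in gene-trap castrated and 5.82 ± 2.87 CPM in wild-type castrated ventricles, and 2.96 ± 1.43 CPM in gene-trap sham and 6.28 ± 2.36 CPM in wild-type sham ventricles (SD). The log2 fold change of gene trap over wild type was -1.64 (SE 0.309) in castrated and -1.05 (SE 0.312) in sham mice. In castrated mice it was -1.58 without gene-trap replicates 1 to 4, which stand below all other libraries on the second principal component. In sham mice it was -0.59 when the first principal component of the differences within groups, found in the 20 libraries outside wild-type sham, was a covariate.

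**Figure D1:**
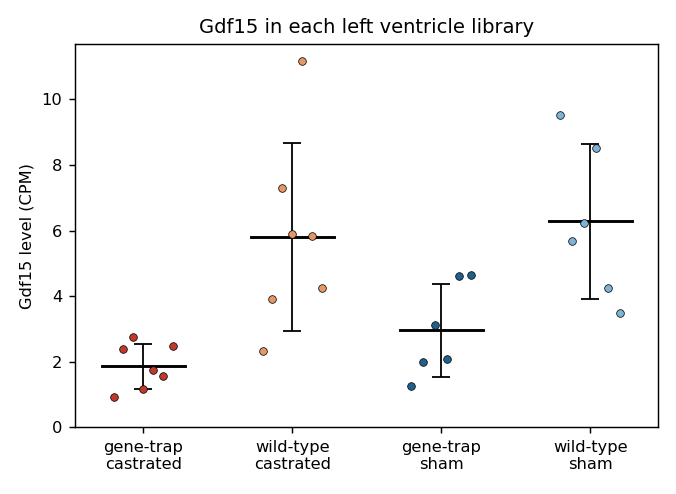
Gdf15 level in CPM on a linear axis in each of the 26 libraries, by group; points are libraries, the bar is the group mean and the error bar its SD. Gene-trap castrated libraries reach 2.74 CPM at most, and the highest library of all is a wild-type castrated one at 11.2 CPM.

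Removal of the testes did not change Gdf15 detectably in either genotype. In wild-type mice the log2 fold change of castrated over sham was -0.11 (SE 0.302, edgeR quasi-likelihood adjusted p = 0.806). Its 95% interval was -0.70 to 0.49, so that a fall or a rise within those bounds is not excluded. In gene-trap mice it was -0.68 (SE 0.349, edgeR adjusted p = 0.302), and its interval was -1.37 to 0.0019. The difference between these effects was -0.58 (-1.48 to 0.33). From low to high the group means ran gene-trap castrated, gene-trap sham, wild-type castrated and wild-type sham. The neighbours within a genotype did not pass the test, and the ranges of gene-trap sham and wild-type castrated libraries, 1.26 to 4.66 and 2.32 to 11.2 CPM, overlapped.

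Among the transcription factors, Atf4 (chromosome 15, 80255184 to 80257540, plus strand), whose product is the main effector of the response and is set mostly by translation, fell after castration in wild-type mice. Its levels were 57.9, 72.6 and 132 CPM (lowest, median, highest) in wild-type castrated and 85.6, 108 and 132 CPM in wild-type sham libraries, with means of 82.6 ± 25.1 and 109 ± 18.1 CPM. The groups overlapped, with 4 of 7 castrated libraries below all sham ones, and the log2 fold change was -0.40 (SE 0.143, edgeR adjusted p = 0.0276). The call was lost without any one of wild-type castrated replicates 1, 3, 4 and 7 or wild-type sham replicates 1 and 4, where the log2 fold change was -0.36 to -0.32 (edgeR adjusted p = 0.0533 to 0.077). In gene-trap mice Atf4 was at 91.9 ± 12.1 CPM in castrated and 114 ± 8.50 CPM in sham ventricles, a log2 fold change of -0.31 that did not pass (edgeR adjusted p = 0.252). Between genotypes it was nearly level, at 0.16 in castrated and 0.082 in sham mice on the log2 scale.

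Atf5 (chromosome 7, 44812256 to 44816658, minus strand) encodes a related leucine zipper factor that is also translated under stress and is tied to mitochondrial protein quality in mammalian cells. In wild-type mice it was at 15.7, 30.9 and 49.2 CPM in castrated and 39.4, 46.2 and 66.7 CPM in sham libraries. Of the castrated libraries 5 of 7 lay below all sham ones, and Atf5 fell by 0.66 on the log2 scale (SE 0.178, edgeR adjusted p = 0.0045). In gene-trap mice it was at 17.0, 22.1 and 24.0 CPM in castrated and 26.9, 32.4 and 44.1 CPM in sham libraries. Here no castrated library reached the lowest sham library, a separation in this direction that 0.439% of all 12291 genes tested had, and the log2 fold change was -0.67 (SE 0.181). That value just missed the threshold of 0.05 (edgeR adjusted p = 0.0623). It passed with DESeq2 (adjusted p = 0.0218), with limma voom (adjusted p = 0.0411), and without any one of gene-trap sham replicate 2, gene-trap castrated replicates 5, 6 and 7 and wild-type castrated replicates 1 and 5. It did not pass without any other single library, with the replicate block (adjusted p = 0.0585), or without gene-trap castrated replicates 1 to 4 (-0.50, adjusted p = 0.736). The castration effects on Atf5 in the 2 genotypes differed by -0.0053 (interval -0.49 to 0.48).

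Like Gdf15, Atf5 had a lower mean in gene-trap than in wild-type ventricles in both surgery groups. Unlike Gdf15, it did not have a lower mean in gene-trap sham than in wild-type castrated ventricles. Its means were 21.03 ± 2.71 CPM in gene-trap castrated and 31.5 ± 10.7 CPM in wild-type castrated ventricles, and 33.4 ± 6.77 CPM in gene-trap sham and 49.95 ± 11.5 CPM in wild-type sham ventricles. These are log2 fold changes of -0.58 in castrated and -0.57 in sham mice. In sham mice the value was -0.24 once the trend of each library on transcript-end GC content was removed, an alternative added after seeing the data. With the component of differences within groups as a covariate it was -0.19.

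Ddit3 (chromosome 10, 127290774 to 127296288, plus strand) encodes CHOP, which forms dimers with ATF4 and takes part in cell death under lasting stress. It fell in wild-type castrated ventricles, where the libraries had 13.3, 17.2 and 33.3 CPM, against 14.9, 34.0 and 47.5 CPM in wild-type sham ones. The groups overlapped, since wild-type sham replicate 6 held the 14.9 CPM and wild-type castrated replicate 5 the 33.3 CPM. The log2 fold change was -0.83 (SE 0.229, edgeR adjusted p = 0.00567). In gene-trap mice Ddit3 was at 26.7 ± 7.35 CPM in castrated and 27.98 ± 4.37 CPM in sham ventricles (log2 fold change -0.069, edgeR adjusted p = 0.908). The difference of these effects, 0.76 (SE 0.324), did not pass (edgeR adjusted p = 0.0877), and did without gene-trap castrated replicate 5, wild-type castrated replicate 5 or wild-type sham replicate 6, at 0.85, 0.95 and 0.93. It also passed with limma voom (0.90, adjusted p = 0.0115) and with the replicate block (0.93, edgeR adjusted p = 0.0472). Without gene-trap castrated replicates 1 to 4 it was 0.48 (edgeR adjusted p = 0.542). With the trend on transcript-end GC content removed it was 0.49 (edgeR adjusted p = 0.256). With the component of differences within groups as a covariate it was -0.060.

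Trib3 (chromosome 2, 152337422 to 152344032, minus strand) encodes a pseudokinase that ATF4 and CHOP induce and that in turn restrains ATF4. In wild-type mice it was at 2.98, 4.49 and 6.59 CPM in castrated and 3.49, 6.76 and 12.3 CPM in sham libraries. It fell after castration by 0.69 on the log2 scale (SE 0.243, edgeR adjusted p = 0.0253), with 1 of 7 castrated libraries below all sham ones and 3 of 6 sham libraries above all castrated ones. Without wild-type sham replicate 4, which held the 12.3 CPM, the value was -0.47 and did not pass, nor did it without wild-type castrated replicate 2 (-0.62) or 7 (-0.63). In gene-trap mice Trib3 was at 3.797 ± 0.956 CPM in castrated and 4.38 ± 1.79 CPM in sham ventricles (log2 fold change -0.19, edgeR adjusted p = 0.732).

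Trib3 and Asns were the members whose start region held the ATF4 composite element. The element was searched for as TGATGNAA on both strands, from 250 bases before to 50 bases after the start of each gene in RefSeq (GRCm38.p6). All 10 members matched, with 13 windows, and 2 of the 13 held the element, against 3.97% of 32841 windows of all genes. The windows of these members are shown beside that of Gdf15, which held no match in its 2 windows. Capitals mark the element; each window is read 5′ to 3′ on the minus strand, the strand of the gene.
Trib3 (chr2:152344011-152344310): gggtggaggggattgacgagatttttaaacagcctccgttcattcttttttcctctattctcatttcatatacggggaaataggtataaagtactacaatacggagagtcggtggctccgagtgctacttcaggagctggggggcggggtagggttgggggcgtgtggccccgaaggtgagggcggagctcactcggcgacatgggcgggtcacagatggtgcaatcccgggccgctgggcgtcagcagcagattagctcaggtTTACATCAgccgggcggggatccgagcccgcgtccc
Asns (chr6:7693160-7693459): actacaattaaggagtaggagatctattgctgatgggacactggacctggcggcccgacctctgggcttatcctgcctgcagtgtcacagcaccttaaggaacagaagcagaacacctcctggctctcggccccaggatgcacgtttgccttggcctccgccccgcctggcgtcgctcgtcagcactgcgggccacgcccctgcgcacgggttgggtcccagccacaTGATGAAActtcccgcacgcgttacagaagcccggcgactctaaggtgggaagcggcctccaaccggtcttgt
Gdf15 (chr8:70632407-70632706): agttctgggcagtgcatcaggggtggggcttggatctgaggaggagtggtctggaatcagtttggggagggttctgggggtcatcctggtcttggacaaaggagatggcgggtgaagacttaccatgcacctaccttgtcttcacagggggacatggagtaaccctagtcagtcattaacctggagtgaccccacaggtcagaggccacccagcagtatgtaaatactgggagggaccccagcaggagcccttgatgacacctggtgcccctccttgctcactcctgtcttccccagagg
In Trib3 the element lies on the strand opposite to the gene, with its first base 15 bases past the start, and in Asns on the strand of the gene, with its first base 23 bases before the start. Such a match is a run of letters and not a measured site of binding.

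Asns (chromosome 6, 7675169 to 7693254, minus strand) encodes asparagine synthetase, the classical amino acid response gene of ATF4. It was counted at 0.782, 1.77 and 2.74 CPM in gene-trap castrated and 0.116, 0.939 and 2.59 CPM in wild-type castrated libraries, and at 0.419, 1.11 and 1.57 CPM in gene-trap sham and 0.484, 0.851 and 1.37 CPM in wild-type sham libraries. These levels rest on 1 to 22 counts per library. Castration gave log2 fold changes of 0.76 (SE 0.421, edgeR adjusted p = 0.343) in gene-trap and 0.094 (SE 0.457, edgeR adjusted p = 0.889) in wild-type mice. The wild-type value had no stable sign, being -0.40 without wild-type castrated replicate 5 and -0.039 without wild-type sham replicate 2.

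The serine synthesis genes were counted at low levels and did not pass any test. Phgdh (chromosome 3, 98313170 to 98339990, minus strand) encodes the enzyme that starts serine synthesis from a glycolytic intermediate, and it did not pass the filter on low counts in any comparison. Its counts summed to 25 over the gene-trap castrated, 8 over the wild-type castrated, 17 over the gene-trap sham and 16 over the wild-type sham libraries, with 0 counts in 2, 3, 1 and 0 libraries of those groups. Psat1 (chromosome 19, 15904678 to 15947337, minus strand), the transaminase of the next step, was at 2.31 ± 0.889 CPM in gene-trap castrated, 1.83 ± 0.612 CPM in wild-type castrated, 2.75 ± 1.19 CPM in gene-trap sham and 1.84 ± 0.818 CPM in wild-type sham ventricles. Its castration effects were -0.27 (interval -0.90 to 0.36) in gene-trap and -0.0048 (-0.67 to 0.67) in wild-type mice.

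Shmt2 and Mthfd2 encode enzymes that carry the carbon of serine into folate within mitochondria. Shmt2 (chromosome 10, 127517123 to 127522444, minus strand), which splits serine into glycine and a folate-bound carbon, was the member whose response to castration depended on genotype in the test. In wild-type mice it fell, with 12.8, 17.9 and 20.1 CPM in castrated and 19.5, 24.8 and 31.7 CPM in sham libraries (log2 fold change -0.56, SE 0.151, edgeR adjusted p = 0.00458). Of the castrated libraries 6 of 7 lay below all sham ones. In gene-trap mice the castrated libraries had 13.99, 20.3 and 29.1 CPM and the sham libraries 14.5, 16.1 and 19.3 CPM (log2 fold change 0.30, edgeR adjusted p = 0.302). The difference of the effects was 0.86 (SE 0.215, edgeR adjusted p = 0.00925). Gene-trap castrated replicates 1 to 4 had 20.3, 24.4, 21.7 and 29.1 CPM and replicates 5 to 7 had 13.99, 16.2 and 15.5 CPM. Without replicates 1 to 4 the difference was 0.45 and did not pass (edgeR adjusted p = 0.335), and the gene-trap effect was -0.081.

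Mthfd2 (chromosome 6, 83305691 to 83325908, minus strand), the dehydrogenase and cyclohydrolase that oxidizes this folate, did not pass. It was at 1.32, 4.15 and 5.74 CPM in gene-trap castrated and 3.37, 5.76 and 8.21 CPM in gene-trap sham libraries (log2 fold change -0.62, SE 0.27, edgeR adjusted p = 0.22). Of the castrated libraries 3 of 7 lay below all sham ones. In wild-type mice it was at 4.54 ± 1.10 CPM in castrated and 4.89 ± 1.80 CPM in sham ventricles (log2 fold change -0.11, edgeR adjusted p = 0.778).

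**Figure D2:**
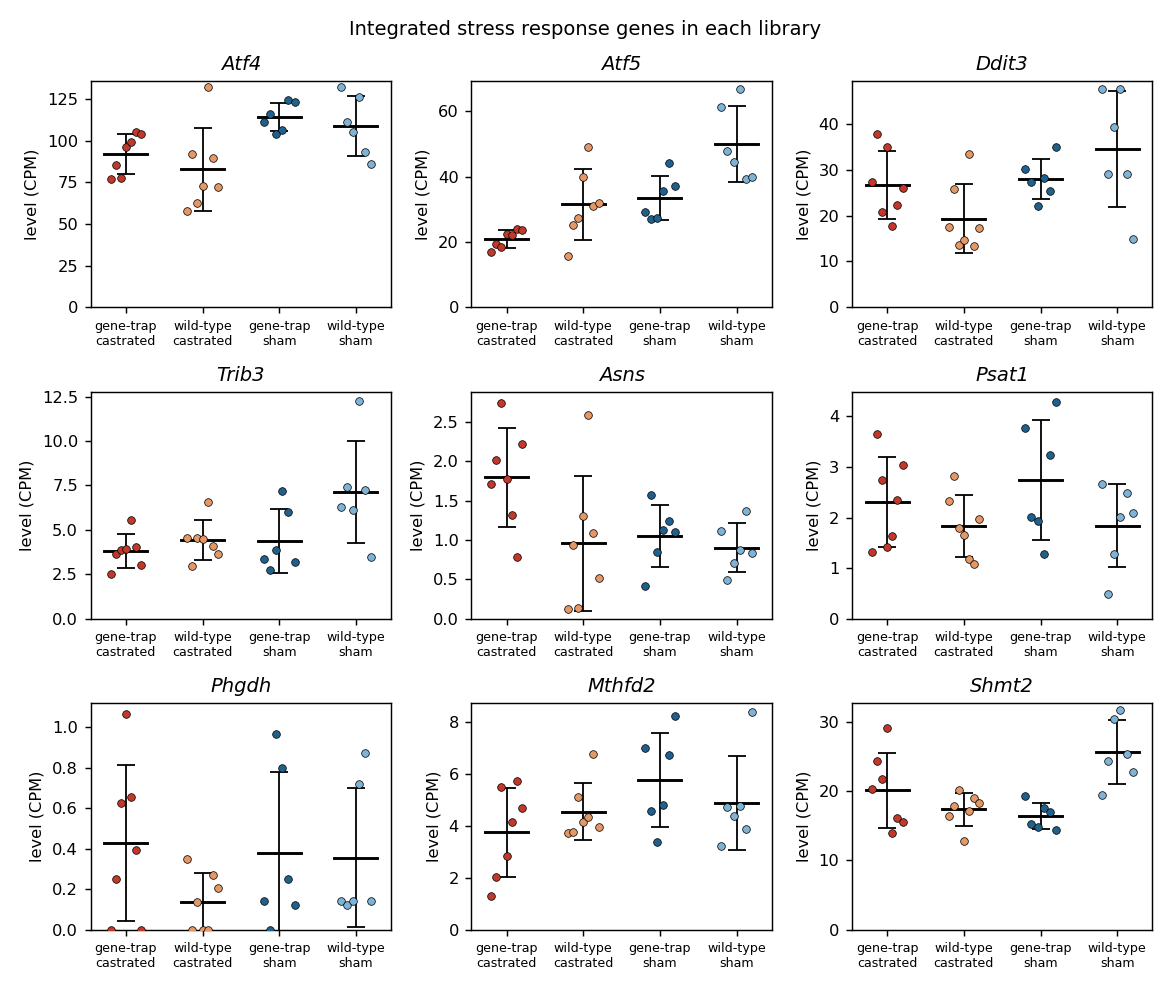
Level in CPM of the 9 other members in each library, by group, each panel with its own linear axis; points are libraries, bars are group means with SD, and the Phgdh error bars are cut at 0. Shmt2 is highest in wild-type sham libraries, at 19.5 to 31.7 CPM, and gene-trap castrated libraries of Atf5, at 17.0 to 24.0 CPM, lie below all gene-trap sham ones.

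Over the 9 members tested, castration in wild-type mice lowered 5 (Atf4, Atf5, Ddit3, Trib3 and Shmt2) and raised 0, while 4 did not pass (Gdf15, Asns, Psat1 and Mthfd2). In this comparison 40.3% of the 12291 genes tested passed, 21.3% in the lower direction, so that 5 of 9 stands against a broad background. The median log2 fold change of the members was -0.40, against -0.018 over all genes. The count was 3 without wild-type castrated replicate 7 or without wild-type sham replicate 4. In gene-trap mice 0 of 9 members passed the edgeR test, where 0.407% of all genes did; at an unadjusted p under 0.05 the count was 3 (Atf4, Atf5 and Mthfd2, all lower), where 9.88% of all genes were lower. DESeq2 and limma voom each called 1 member, Atf5, where DESeq2 called 5.94% of the genes it gave an adjusted p and limma voom 3.12% of all genes. In edgeR 0.155% of all genes were called higher and 0.252% lower. The members' median was -0.27 there, against 0.013 over all genes. The castration effects differed between genotypes for 1 of 9 members, against 20.1% of all genes, and against 11.8% in the direction of Shmt2.

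**Figure D3:**
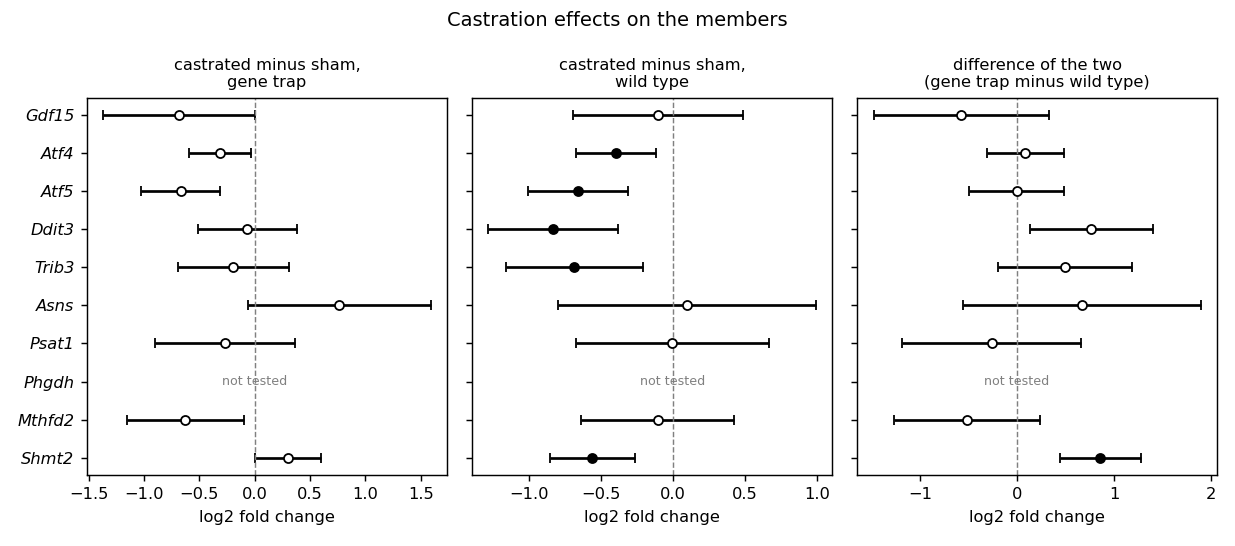
Log2 fold change of castrated over sham for each member tested, in gene-trap mice, in wild-type mice and as the difference of these effects; bars are 95% intervals and filled points passed the edgeR test at an adjusted p of 0.05. In wild-type mice 5 members lie below 0 as filled points, in gene-trap mice 0 points are filled, and in the difference only Shmt2 is filled, at 0.86.

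Between genotypes, given as a description, the 8 members tested in sham mice had a median log2 fold change of -0.43, against 0.022 over all genes. Gdf15, chosen by this comparison, is among them, so nothing is read from this median or from the share past the threshold. Gdf15, Atf5 and Shmt2 were past the threshold and lower in gene-trap mice, where 26.3% of 11569 genes were past it and 14.3% were past it and lower. Shmt2, at 14.5 to 19.3 CPM in gene-trap sham and 19.5 to 31.7 CPM in wild-type sham libraries, was the 1 member whose groups did not overlap, as was so in the lower direction for 3.91% of all genes. Trib3 stood at -0.69, Ddit3 at -0.29, Mthfd2 at 0.26 and Psat1 at 0.61. In castrated mice 1 of 9 members, Gdf15, was past the threshold, where 0.205% of 11693 genes were and 0.111% were and lower. Since Gdf15 was chosen by this comparison, nothing is read from that share. The count was 0 with the replicate block and without any one of gene-trap castrated replicates 1 to 4 and wild-type castrated replicates 3 to 7, and without single libraries the number of all genes past the threshold ran from 4 to 418, against 24. The median of the members, Gdf15 included, was 0.16, against 0.0048 over all genes. Asns stood at 0.89, Ddit3 at 0.47, Psat1 at 0.34, Shmt2 at 0.22, Trib3 at -0.21 and Mthfd2 at -0.27. The authors' deposited table of their DESeq2 comparison gives wild type over gene trap, so that its sign is the other way round. In it Gdf15 has a log2 fold change of 1.03 (SE 0.204) in castrated and 0.235 (SE 0.261) in sham mice. The sources used here do not give the settings of that fit, so its sizes may not be on the same footing as those above. The authors' deposited mean of Gdf15 is 30.4 in castrated mice, and the deposited columns also give 30.4; in sham mice their mean is 37.8 where the columns give 34.0. The sham table also lists 414 genes with a mean above 0 that have a count of 0 in all its columns, so that its fold change may rest on other libraries than those deposited.

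In 3 of the 4 groups the libraries high for Gdf15 tended to be high for Atf5 too, but hardly so in gene-trap castrated mice. Over the 26 libraries, which share depth and library composition, log2 CPM of Gdf15 and Atf5 gave 0.761 as Pearson r and 0.771 as Spearman rho, and r was 0.696 without the 2 libraries with the most extreme Atf5. After subtraction of the group means r was 0.7101. By group it was 0.143 in gene-trap castrated, 0.867 in wild-type castrated, 0.646 in gene-trap sham and 0.926 in wild-type sham libraries. For Trib3 the pooled r with Gdf15 was 0.557 and 0.403 after subtraction of the group means, for Atf4 0.218 and 0.550, and for Shmt2 0.128 and -0.12. The order of Trib3 and Atf4 thus turned round, and by group r of Atf4 was 0.0604 in gene-trap castrated, 0.645 in wild-type castrated, 0.5679 in gene-trap sham and 0.983 in wild-type sham libraries. Wild-type castrated replicate 5 held the highest level of its group for 6 of 10 members (Gdf15, Atf4, Atf5, Ddit3, Trib3 and Asns), and gene-trap castrated replicate 1 the lowest, or tied lowest, for 7 (Gdf15, Atf4, Atf5, Trib3, Psat1, Phgdh and Mthfd2).

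**Figure D4:**
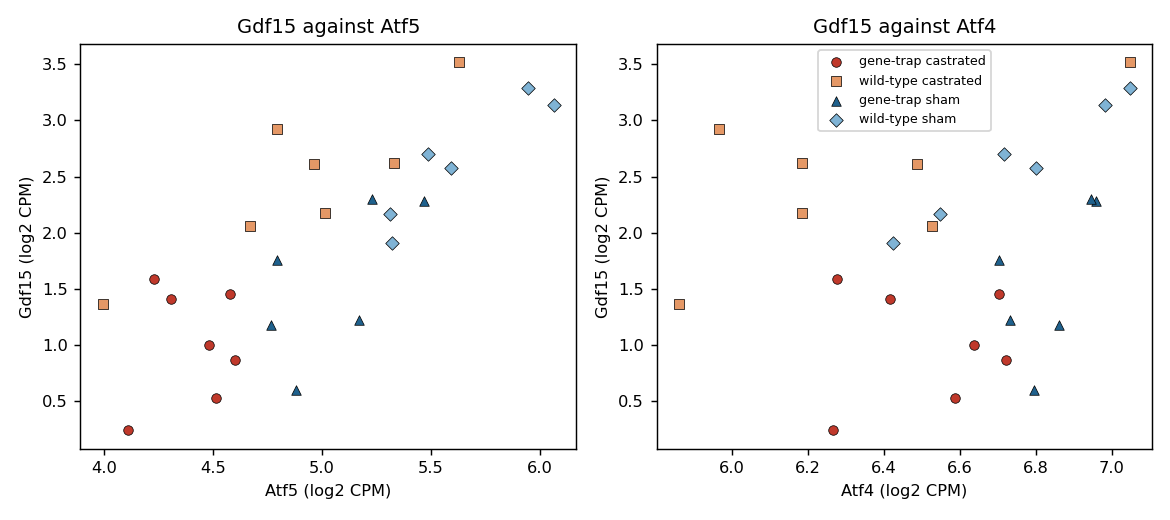
Log2 CPM of Gdf15 against that of Atf5 and of Atf4, 1 point per library, coloured by group. Gdf15 and Atf5 lie along a common line (r = 0.761 over 26 libraries), while Gdf15 and Atf4 do so less over all libraries (r = 0.218) than within groups (r = 0.550 after subtraction of the group means).

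Of 11478 genes ranked by the Pearson r of their log2 CPM with that of Gdf15 over the 26 libraries, genes at the top were Ltbr, the lymphotoxin beta receptor gene, at 0.853, the sorting nexin gene Snx5 at 0.848, Fam135a at 0.835 and the calcineurin regulatory subunit gene Ppp3r1 at 0.830. Ltbr was at 26.9 ± 4.36 CPM in gene-trap castrated, 41.7 ± 12.1 CPM in wild-type castrated, 35.9 ± 9.73 CPM in gene-trap sham and 52.0 ± 9.71 CPM in wild-type sham ventricles. After subtraction of group means the top 5 were the sterol regulator gene Srebf2 at 0.807, Ovca2 at 0.774, the arginine methyltransferase gene Prmt1 at 0.753, Rrn3 at 0.738 and Snrpd3 at 0.737. None of the other members was among the 5 most like Gdf15 by either measure.

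The members that fell in wild-type castrated mice include genes with GC-rich transcript ends, and the expression of such genes differed between libraries. In the last 400 nt of their transcripts GC made up 56.9% for Shmt2, 56.6% for Trib3, 56.4% for Atf5, 54.6% for Gdf15, 53.1% for Ddit3 and 49.2% for Atf4, and 45.4% to 47.5% for Psat1, Asns and Mthfd2. The slope of log2 CPM on GC content over all genes, per 10 points of GC, was -0.0234 ± 0.169 in gene-trap castrated, -0.13 ± 0.101 in wild-type castrated, -0.0605 ± 0.119 in gene-trap sham and 0.239 ± 0.130 in wild-type sham libraries (SD). Its Pearson r with log2 CPM over the 26 libraries was 0.870 for Shmt2, 0.706 for Ddit3, 0.622 for Trib3, 0.528 for Atf5, 0.414 for Atf4 and 0.257 for Gdf15. After subtraction of the group means these values were 0.799 for Shmt2, 0.654 for Ddit3, 0.446 for Trib3, 0.303 for Atf5, 0.288 for Atf4 and 0.152 for Gdf15. Within gene-trap castrated libraries r was 0.982 for Shmt2 and 0.75 for Ddit3, but negative for Trib3 (-0.29), Atf5 (-0.36), Atf4 (-0.46) and Gdf15 (-0.36).

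With that trend removed from each library, an alternative added after seeing the data, 4088 genes still passed for castration in wild-type mice, but of the members only Ddit3 did (log2 fold change -0.60, edgeR adjusted p = 0.0237). The values were -0.34 for Atf4 (edgeR adjusted p = 0.0513), -0.32 for Atf5 (0.142), -0.32 for Trib3 (0.286) and -0.19 for Shmt2 (0.221), and the difference between genotypes for Shmt2 was 0.38 (0.127). In gene-trap mice Atf5 passed under this alternative, at -0.72 (edgeR adjusted p = 0.0394). With the component of differences within groups as a covariate 0 members and 2 of all genes passed for castration in wild-type mice, against 4956 of all genes without it. The members' values were -0.17 for Atf4, -0.33 for Atf5, -0.056 for Ddit3, -0.094 for Trib3 and -0.074 for Shmt2. The GC slope itself differed between wild-type castrated (-0.13) and wild-type sham libraries (0.239), so that removing its trend can also remove a castration effect. Whether the component does so was not tested. With the GC trend removed the Gdf15 values between genotypes were -1.68 in castrated and -0.78 in sham mice.

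**Figure D5:**
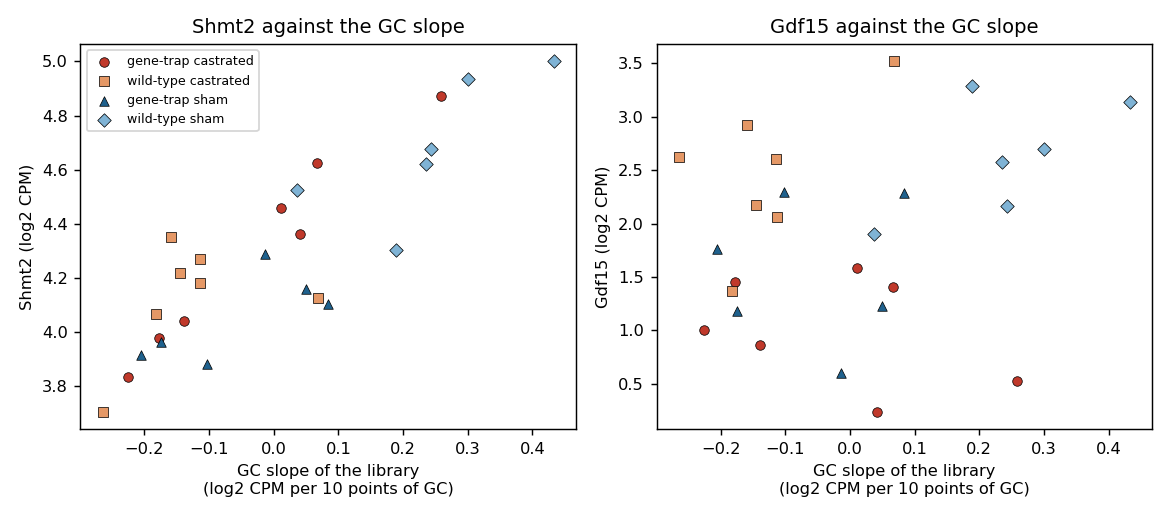
Log2 CPM of Shmt2 and of Gdf15 in each of the 26 libraries against the slope of log2 CPM on the GC content of transcript ends in that library, coloured by group. Shmt2 rises along the slope (r = 0.870) and Gdf15 less so (r = 0.257); wild-type sham libraries hold the highest slopes.

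Markers of other cell types were also set beside the members. In wild-type mice the summed level of 8 cardiomyocyte markers was 51890 to 88070 CPM in castrated and 63390 to 115500 CPM in sham libraries, with 6 of 8 called, and that of 5 erythroid markers was 1762 to 3901 CPM in castrated and 3339 to 7251 CPM in sham libraries, with 5 of 5 called. Leukocyte markers summed to 167 to 278 CPM in castrated and 202 to 272 CPM in sham libraries with 0 of 7 called. Endothelial markers (385 to 581 CPM castrated, 472 to 641 CPM sham, 2 of 4 called), fibroblast markers (822 to 1035 CPM castrated, 750 to 951 CPM sham, 1 of 4), atrial markers (156 to 500 CPM castrated, 307 to 629 CPM sham, 1 of 4) and smooth muscle markers (77.3 to 173 CPM castrated, 112 to 229 CPM sham, 0 of 3) were counted in every group, and no marker was at 0 throughout a group. In this comparison 40.3% of the 12291 genes tested were called, and the called markers, like that share, are counted in either direction. The part of these cell types in the members' values was not tested. Ddit3 and Shmt2 overlap genes on the opposite strand (Mars and Ndufa4l2) at the 3′ ends of both genes, from which the tags come. Atf5 overlaps Nup62, also on the opposite strand, at the starts of both genes. The sources used here do not give the strand setting of the counting. The levels are therefore uncertain to the extent that tags of either gene fell within the other. After castration in wild-type mice Nup62 had a log2 fold change of -0.32 (edgeR adjusted p = 0.0283), Mars of -0.32 (0.109) and Ndufa4l2 of 0.26 (0.163).

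Genes of the wider pathway were called in both directions after castration in wild-type mice, at shares near those of all genes. Of 91 tested genes in 7 related lists, 22 rose, 23 fell and 46 did not pass, where 19.1% of all genes rose and 21.3% fell. The median log2 fold changes were -0.020 for the eIF2 kinases and their control, 0.19 for other ATF4 targets, -0.11 for tRNA synthetases, 0.046 for serine and folate metabolism, 0.015 for mitochondrial proteases and chaperones, -0.17 for p53 targets and -0.47 for the GDF15 receptor and its processing, against -0.018 over all genes. Of 15 genes of the eIF2 kinases and their control, 5 rose and 5 fell: Ppp1r15b, a phosphatase subunit that reverses eIF2 phosphorylation, rose to 32.7 ± 6.68 CPM in castrated ventricles, against 18.7 ± 4.25 CPM in sham ones (log2 fold change 0.81, edgeR adjusted p = 0.00125). Dele1, listed as 0610009O20Rik, which relays mitochondrial stress to the kinase HRI in human cells, fell to 48.4 ± 13.9 CPM, against 81.5 ± 14.1 CPM in sham ventricles (-0.75, edgeR adjusted p = 0.00144).

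Of 27 tested genes among 31 other ATF4 targets, 8 rose and 4 fell. The folate enzyme gene Aldh1l2 rose to 6.13 ± 1.49 CPM in castrated ventricles, against 2.86 ± 1.23 CPM in sham ones (log2 fold change 1.09, edgeR adjusted p = 0.00163), and the lipoprotein receptor gene Vldlr rose by 0.42. Of 13 cytosolic tRNA synthetase genes 2 rose and 3 fell, among them Tars (0.88) and Cars (-0.81). Of 10 tested further genes of serine and folate metabolism 1 rose and 3 fell, with Gcsh of the glycine cleavage system at -0.77 and the methionine synthase gene Mtr at -0.75.

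Of 11 mitochondrial protease and chaperone genes 3 rose and 3 fell; the subunits of 1 protease complex, Clpx (0.83) and Clpp (-0.71), moved in opposite directions. Of 12 p53 target genes, a class that includes Gdf15 in many cells, 3 rose and 4 fell, with Sesn1 at 1.35 and Aen at -0.71. Of 4 genes of the GDF15 receptor and its processing, Gfral among them, 3 were tested and 1 fell: the protease gene Furin was at 72.5 ± 17.3 CPM in castrated and 114 ± 18.1 CPM in sham ventricles (-0.65, edgeR adjusted p = 0.00342). The co-receptor gene Ret stood at -0.47 and did not pass (edgeR adjusted p = 0.0792).

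In gene-trap mice 1 of the 91 genes passed after castration, where 0.407% of all genes passed and 0.155% passed and were higher. Eif4ebp1, an ATF4 target that encodes a repressor of cap-dependent translation, rose to 66.4 ± 20.8 CPM in castrated ventricles, against 39.5 ± 6.70 CPM in sham ones (log2 fold change 0.75, SE 0.158, edgeR adjusted p = 0.0345). Mdm2, the ubiquitin ligase of p53, was at 92.4 ± 18.5 CPM in castrated and 136 ± 23.4 CPM in sham ventricles (-0.55, edgeR adjusted p = 0.052), and Cdkn1a, the cell cycle inhibitor, stood at -0.65 (edgeR adjusted p = 0.132). The transaminase gene Gpt2 stood at -0.47, Sars at -0.62, Eprs at -0.20, the chaperonin gene Hspd1 at -0.33, the protease gene Lonp1 at 0.29, Sfxn1, a mitochondrial serine carrier, at -0.39, Mthfd2l at 0.67, and the eIF2B subunit genes Eif2b3 and Eif2b5 at -0.34 and -0.32, none of which passed (edgeR adjusted p from 0.0754 to 0.282). The castration effect differed between genotypes for 18 of the 91 genes, 12 of them higher and 6 lower in gene-trap mice, where 20.1% of all genes passed, 11.8% higher and 8.36% lower. As a description of genotype, 7 of 89 tested genes were higher and 14 lower past the threshold in gene-trap sham mice, where 11.9% of all genes were higher and 14.3% lower. In castrated mice 1, the co-chaperonin gene Hspe1 at 0.59, was higher and 0 lower, where 0.0941% of all genes were higher.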

How the data were processed

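RNA from 26 left ventricle samples was sequenced as 3′ end tags (QuantSeq FWD library kit), per the labels' protocols. The deposited tables hold raw counts of reads per gene and library, per the file headers. They also hold the authors' comparison of wild type over gene trap: a mean signal after scaling, a log2 fold change and its error, a score (a test statistic) and a p-value, per the file headers. Tools named by the submitters' processing notes, with no step for each, are STAR, featureCounts 1.6.0, DESeq2 1.22.2, FastQC and CASAVA 1.4, with the build GRCm38.

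Entries that name no gene (reads without a unique alignment 41.9% to 46.8%, in no feature 2.66% to 4.62%, ambiguous 0.277% to 0.358%) were left out, as were 4984 genes listed without counts. In R 4.3.3, edgeR 4.0.16 (TMM scaling, filterByExpr, robust quasi-likelihood F test, Benjamini-Hochberg over all genes tested, threshold 0.05) tested castration and the interaction in a fit of 26 libraries with a mean for each of 4 groups, which share 1 estimate of the spread, and gave genotype values in sham and castrated libraries apart. Log2 CPM used a prior count of 2. DESeq2 1.42.0 and limma 3.58.1 (voom with sample weights) were alternatives, beside size factors, other filters, a replicate block, a within-group component and the left-out libraries. The method was checked on simulated counts. There the castration tests recovered 80% (wild-type) and 81% (gene-trap) of changes of 1 on the log2 scale, and 20% and 21% of changes of 0.5. The interaction test recovered 46% and 3%, so that smaller changes can be missed. The members, lists, tests and alternatives were chosen with earlier results of these data known. Named beyond the members were up to 2 genes per list with the smallest p for castration in each genotype, and the 5 genes with a symbol most like Gdf15 by each measure, 1 of which is not reported here. Promoter windows are from RefSeq. Intervals are 95% and, like the limit of 3 counts, take no account of the choice of members.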

Additional observations from a re-analysis of the deposited data

Results flagged for a closer look

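Wild-type sham replicate 6 stood apart for Mthfd2, at 8.37 CPM where the other 5 wild-type sham libraries had 3.22 to 4.76 CPM. Its gap to the nearest library was 0.700 of the group's range. In all, 40 sets of a member and a group were examined in this way, and chance gives such a gap in about 1 in 20 sets.

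The castration effect on Shmt2 differed between gene-trap and wild-type mice by 0.86 on the log2 scale (edgeR adjusted p = 0.00925). The effect was 0.30 in gene-trap and -0.56 in wild-type mice. The difference did not pass with the component of differences within groups as a covariate or with the GC trend removed. Nor did it pass without gene-trap castrated replicates 1 to 4.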

How the results depend on the processing

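The number of members that passed for castration in wild-type mice was 5. It was 0 with the component of differences within groups as a covariate and 1 with the GC trend removed, and it was 3 to 5 without single libraries. For castration in gene-trap mice it was 0, but 1 with DESeq2, limma voom, the component or the GC trend removed, and 0 to 1 without single libraries. For the interaction it was 1, but 2 with limma voom or the replicate block, 0 with the component, the GC trend removed or without castrated gene-trap replicates 1 to 4, and 1 to 2 without single libraries. For genotype in castrated mice it was 1 (Gdf15), also 1 with DESeq2 but for Atf5, as DESeq2 gave Gdf15 no adjusted p, 2 with limma voom, 0 with the block or without those 4 replicates, and 0 to 2 without single libraries. For genotype in sham mice it was 3, but 5 with the block, 0 with the component or the GC trend removed, and 2 to 5 without single libraries. Of all genes 32.3% passed there with the block, 4.33% with the component and 18.9% with the GC trend removed. Gdf15 was chosen by these genotype comparisons, so nothing is read from their counts of members. The counts with DESeq2 size factors, without a filter, and with a group mean of at least 10 counts did not leave the range of 1.5 times. Over all genes, castration in gene-trap mice gave 50 calls, against 433 with DESeq2, 383 with limma voom, 331 with the block, 871 with the component, 168 with the GC trend removed, 3 without the 4 replicates, and 3 (without gene-trap castrated replicate 3) to 377 (without replicate 7) without single libraries. The interaction gave 2474 calls, against 4032 with limma voom, 1430 with the GC trend removed and 0 with the component or without the 4 replicates. Castration in wild-type mice gave 4956, against 2 with the component. Genotype gave 24 in castrated mice, against 529 with DESeq2, 679 with limma voom, 257 in the fit to all 4 groups, 147 with the component, 99 with the GC trend removed, 73 without a filter, 3 with the block, 2 without the 4 replicates and 4 to 418 without single libraries. In sham mice it gave 3037, against 501 with the component.

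No pairing of the samples by replicate number was evident. The r between deviations of same-numbered libraries exceeded 0.1 in 1 of 5, 0 of 7, 1 of 6 and 2 of 6 pairs (range -0.400 to 0.323), which does not exclude a pairing. Some values changed sign, most of them near 0 to begin with, but also the interaction for Ddit3 (0.76) and Trib3 (0.49) and Shmt2 after castration in gene-trap mice (0.30). With the component, the interaction was -0.14 for Atf4, -0.060 for Ddit3 and -0.042 for Trib3, and Gdf15 after castration in wild-type mice was 0.38 (0.17 with the GC trend removed). With limma voom, castration in wild-type mice gave -0.40 for Asns, 0.086 for Mthfd2 and 0.32 for Psat1, and the Atf5 interaction was 0.037. With the block these were 0.0060 for Mthfd2, 0.13 for Psat1 and 0.098 for the Atf5 interaction, and Ddit3 after castration in gene-trap mice was 0.059. Psat1 was also 0.016 with DESeq2 size factors and with DESeq2, 0.0088 without a filter and 0.033 without the 4 replicates, where the Atf5 interaction was 0.13 and Shmt2 after castration in gene-trap mice -0.081. Without single libraries, castration in wild-type mice ran from -0.40 to 0.30 for Asns, -0.35 to 0.050 for Gdf15, -0.23 to 0.12 for Mthfd2 and -0.21 to 0.13 for Psat1, the Atf5 interaction from -0.12 to 0.14, and Ddit3 in gene-trap mice from -0.16 to 0.026. The cause of these shifts was not tested. Depth limits Gdf15, Trib3, Asns, Psat1, Phgdh and Mthfd2 most.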
